A study of Mus musculus with 9 samples.

Results

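Collagens, laminins and integrins are the protein-coding genes that build the matrix around cells and the receptors that hold it. Members were chosen by name from the mouse gene annotation, as genes named Col, a number, a and a number, as Lama, Lamb or Lamc with a number, and as Itga or Itgb with a number or a single letter, and 80 of the 22396 genes counted fell under the rule. They comprised 44 collagens, 11 laminins and 25 integrins. The study asked which RNAs associate with RIG-I, a cytosolic sensor of RNA, when OSGEP is lost, an enzyme that carries the catalytic activity of KEOPS, the complex behind the t6A modification of tRNA. RNA was recovered with anti-FLAG from B16F10 cells, a mouse melanoma line that stably carried FLAG-tagged RIG-I in every group, controls included, and was sequenced after removal of ribosomal RNA. The groups were cells given a control shRNA (shCtr), a first shRNA against Osgep (shOSGEP#1) or a second one (shOSGEP#2), delivered by lentivirus, with 3 libraries each from separate experiments. All values describe RNA in the RIG-I immunoprecipitate; RNA outside it was not analysed here, so stronger binding to RIG-I, more RNA per cell and more cells of a kind cannot be told apart.

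The knockdown target was checked first. Osgep was measured at 19.1, 19.9 and 15.5 CPM (counts scaled by the library total) in the 3 shCtr libraries, 3.76, 1.15 and 1.53 CPM in shOSGEP#1, and 0.0786 and 2.88 CPM in replicates 1 and 3 of shOSGEP#2. Every knockdown library lay below every control, as labelled. The Osgep log2 fold change was -3.10 (SE 0.734, edgeR adjusted p = 0.0128) for shOSGEP#1, -3.84 (SE 0.934, edgeR adjusted p = 0.0150) for shOSGEP#2 and -3.47 (SE 0.644, edgeR adjusted p = 0.00406) for the mean of both shRNAs, where an adjusted p under 0.01 counts as a call throughout. Ddx58 (the RIG-I gene) stood at 179.9, 184 and 278 CPM in shCtr, 232, 216 and 327 CPM in shOSGEP#1 and 402 and 429 CPM in shOSGEP#2, with log2 fold changes of 0.26 (SE 0.211, edgeR adjusted p = 0.427) and 0.86 (SE 0.233, edgeR adjusted p = 0.0239) that did not pass the threshold. Counts of Ddx58 were not split between the gene of the cells and the FLAG-tagged RIG-I construct.

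Total counts were 40333037, 47750758 and 41805753 in shCtr, 34551436, 50224299 and 30697653 in shOSGEP#1 and 25460689 and 14914731 in replicates 1 and 3 of shOSGEP#2. Replicate 2 of shOSGEP#2 stood apart, with 568995 counts and 4196 genes detected against 11733 or more in each other library. Across genes, its rank correlation with the other shOSGEP#2 libraries was 0.580 and 0.601, against 0.957 between those replicates. A count of 0 there allows up to 5.27 CPM (3 counts; floors and intervals here cover counting error only), and both Osgep and Ddx58 were at 0. It is therefore shown apart: the tests compare 3 shCtr, 3 shOSGEP#1 and 2 shOSGEP#2 libraries in 1 edgeR fit, and the counts of calls with all 9 libraries are given as well. Replicate 3 of shOSGEP#2, kept in the fit, was also unusual. Of its 11733 genes detected 11583 reached 10 counts, against 11937 of 13786 in replicate 1. In replicate 3, 32 of 80 members were at 0, against 13 to 20 in the other libraries of the fit. The knockdown comparisons share the same shCtr libraries, so their values are set side by side and are not independent of each other.

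Collagens are trimers of helical chains. Collagen IV forms the network of basement membranes, the fibrillar collagens I, III and V make up fibrils, and laminins are heterotrimers of an alpha, a beta and a gamma chain that polymerise on the cell surface. Integrins are pairs of an alpha and a beta chain that bind these proteins outside the cell and couple them to actin inside it, and in melanoma the receptors for laminin, fibronectin and VCAM-1 have been studied for their part in invasion and spread.

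In the control immunoprecipitates most members were detectable: 50, 48 and 51 of 80 members reached 10 counts in shCtr replicates 1, 2 and 3. In all 3 of these libraries 42 members did so, namely 21 collagens, 7 laminins and 14 integrins. Reaching 10 counts were 51, 52 and 49 members in shOSGEP#1, 48 and 45 in shOSGEP#2 replicates 1 and 3, and 15 in the shallow replicate 2. Another 9 members were at 0 in every library: Col13a1, Col22a1, Col24a1, Col6a4, Col6a6, Lama1, Itgad, Itgam and Itgax, the last 3 of which are alpha chains of leukocyte integrins. The filter on low counts passed 62 members (33 collagens, 9 laminins and 20 integrins), and the 18 others never went above 13 counts in any library.

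Per length of exon, Itgb1 stood well above the other members in the controls, and the leading collagens stood below the leading laminin chains and integrins. On the RPKM scale (CPM per kilobase of exon, mean ± SD over the shCtr libraries, n = 3), Itgb1, the beta chain shared by most matrix-binding integrins, was at 40.2 ± 3.76, Itgb5, a partner of the alpha v chain, at 11.3 ± 0.345 and Itga5, the alpha chain of the classical fibronectin receptor, at 7.25 ± 1.13. Among laminins the RPKM was 6.73 ± 0.482 for Lamb2, 5.96 ± 0.382 for Lamc1 and 3.46 ± 1.5 for Lama5. The chains Lamb2 and Lamc1 lay within the sum of their SDs of each other, whereas the spread of Lama5 was wide, with shCtr replicate 3 low, and Itga5 and Lamb2 did not differ beyond their spread. The leading collagens were close together, with RPKM of 1.77 ± 0.134 for Col15a1, a chain of basement membrane zones, 1.65 ± 0.228 for Col5a3 and 1.56 ± 0.226 for Col5a1, and their order is within the spread. Col15a1 stood at 11.1, 12.1 and 10.4 CPM in shCtr, 16.4, 18.5 and 18.2 CPM in shOSGEP#1 and 2.24 and 12.1 CPM in shOSGEP#2, and it was not called in any comparison.

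Together the members took a larger share of counts in every knockdown library than in any control. Their summed share was 0.0733, 0.0734 and 0.0809% in shCtr, 0.144, 0.206 and 0.263% in shOSGEP#1 and 0.179 and 0.223% in shOSGEP#2 replicates 1 and 3. Integrins made up most of it, at 0.0456, 0.0469 and 0.0553% in shCtr, 0.102, 0.155 and 0.206% in shOSGEP#1 and 0.106 and 0.121% in shOSGEP#2. Itga4 alone made up 359.8, 584 and 939 CPM of it in the shOSGEP#1 libraries. Laminins took 0.0189, 0.0173 and 0.0153% in shCtr, 0.0278, 0.0349 and 0.0378% in shOSGEP#1 and 0.0448 and 0.0503% in shOSGEP#2, and collagens 0.00883, 0.00917 and 0.0103%, 0.0139, 0.0157 and 0.0188% and 0.0283 and 0.0526% in the same order of groups. For each of the 3 families, the knockdown libraries lay above all controls, and for collagens and laminins both shOSGEP#2 libraries also lay above all of shOSGEP#1. The bounds of 95% Wilson intervals lay within 3.34% of each collagen share, 2.48% of each laminin share and 1.47% of each integrin share.

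With shOSGEP#1, the members that rose were the collagen IV chains Col4a1 and Col4a2, the laminin chains Lama4 and Lamc1, and the integrin chains Itga4, Itga6, Itga9, Itgav and Itgb1. Of 62 members tested, 9 rose and 0 fell by edgeR at an adjusted p under 0.01, where 5.00% of all 12744 genes tested rose and 4.67% fell. At an unadjusted p under 0.05, 22 members were higher and 3 lower by edgeR, beside 18.0% and 16.9% of all genes tested. DESeq2 on the same 8 libraries called 16 members in either direction, beside 20.0% of all genes, and edgeR at an adjusted p under 0.05 called 15, beside 21.9%. The median log2 fold change was 0.86 over the members tested and 0.00 over all genes tested, and it stayed 0.86 with Col5a2, which had 0 counts in every control, set to the bound of 3 counts over the group. By family the median was 1.02 for collagens, 0.97 for laminins and 0.22 for integrins. Some collagens that passed the filter were scarce in shCtr, such as Col11a1 (1, 1 and 0 counts) and Col17a1 (8, 4 and 1). Such members passed through knockdown libraries. The collagen median and that over all members, here and in the comparisons below, therefore cannot by themselves show a rise. Leaving out shCtr replicate 1 or 2 brought the number of members called to 5 and 3, and leaving out shOSGEP#1 replicate 2 or 3 to 5 and 5. Itga4, Itga6 and Lamc1 were called in each of these fits. The share of all genes called in them is not given, so a loss among members cannot be told from a general one.

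With shOSGEP#2 the calls reached further among collagens. Col4a1, Col4a2, Col4a5, Col5a1 and Col5a3 rose, together with the laminin chains Lama5, Lamb2 and Lamc1 and the integrin chains Itga1, Itga5, Itga6, Itga9, Itgav and Itgb5. In number, 14 of 62 members tested rose and 0 fell by edgeR, against 5.66% and 3.89% of all genes tested. By edgeR without adjustment 25 members were higher and 2 lower at p under 0.05, beside 17.7% and 17.9% of all genes, and DESeq2 called 24 members beside 19.4% of all genes. At an adjusted p under 0.05 edgeR called 24, beside 21.0% of all genes. The median was 0.96 over the members tested against -0.06 over all genes tested, or 0.95 without Col5a2, whose 2 groups were at or under the 3-count floor. Medians by family were 1.54 for collagens, 1.42 for laminins and 0.08 for integrins, and for collagens 1.46 without Col5a2. The collagens scarce in shCtr again entered these medians, among them Col11a1 (0 and 32 counts in shOSGEP#2) and Col17a1 (55 and 38). The medians therefore cannot by themselves show a rise. Called with each shRNA on its own were Col4a1, Col4a2, Lamc1, Itga6, Itga9 and Itgav; depth was lower in the shOSGEP#2 libraries than in the controls, and its part in these counts was not tested.

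Averaged over both shRNAs, the chains that rose were Col4a1, Col4a2, Col4a5, Col5a1, Col5a3, Lamb2, Lamc1, Itga5, Itga6, Itga9, Itgav, Itgb1 and Itgb5. These were 13 of 62 members tested, with 0 lower, by edgeR, where 5.04% of all genes tested rose and 4.27% fell. A change with a single shRNA can carry this average. Taken singly, Col4a5, Col5a1, Col5a3, Lamb2, Itga5 and Itgb5 were called with shOSGEP#2 only, and Itgb1 with shOSGEP#1 only. Without adjustment 25 members were higher and 2 lower at p under 0.05 by edgeR, beside 17.1% and 17.8% of all genes, and DESeq2 called 21 members beside 19.0% of all genes. At an adjusted p under 0.05 edgeR called 20, beside 21.2% of all genes. The median log2 fold change was 0.95 over the members tested, also with Col5a2 at its bound, and -0.04 over all genes tested. Without shCtr replicate 1, 2 or 3 the number of members called was 5, 4 and 8. No share of all genes called is given for these fits, so this drop is not read as particular to the members.

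Markers of the melanocyte lineage were lower with shOSGEP#2. Of 8 melanocyte genes, all tested, 1 fell with shOSGEP#1 (Tyr) and 6 with shOSGEP#2 (Mlana, Pmel, Dct, Tyr, Sox10 and Slc45a2), and none rose by edgeR in either comparison. At an unadjusted p under 0.05 by edgeR, 1 and 0 were higher and 1 and 8 lower. Over both shRNAs 3 fell and none rose by edgeR. Their summed level was 6609, 6342 and 8911 CPM in shCtr, 6653, 8094 and 7230.2 CPM in shOSGEP#1, 2718 and 3499 CPM in shOSGEP#2 and 1777 CPM in the shallow library, with Tyrp1, a pigment enzyme, the most abundant in each of the 8 libraries tested and Sox10 in the shallow one. Tyr, the rate-limiting enzyme of melanin synthesis, was at 153, 153 and 193 CPM in shCtr, 30.4, 26.1 and 27.3 CPM in shOSGEP#1 and 5.93 and 19.8 CPM in shOSGEP#2, with log2 fold changes of -2.59 (SE 0.322, edgeR adjusted p = 0.000560) and -3.83 (SE 0.410, edgeR adjusted p = 0.000213). With libraries left out in turn, the Tyr value for shOSGEP#2 ranged from -4.87 to -3.20. The Mlana call with shOSGEP#2 was lost without shOSGEP#2 replicate 3 and the Sox10 call without replicate 1, at edgeR adjusted p = 0.0109 and 0.0101. Of 6 fibroblast markers 2 could be tested and 1, Pdgfrb, rose with shOSGEP#2 by 2.10 (SE 0.335, edgeR adjusted p = 0.00167), a call lost without shOSGEP#2 replicate 3 (edgeR adjusted p = 0.0130). With shOSGEP#1, 1 of these 2 markers was higher at an unadjusted p under 0.05 by edgeR, and over both shRNAs 1 was called higher. Summed fibroblast markers were at 5.80, 6.07 and 4.09 CPM in shCtr, 7.12, 10.0 and 7.66 CPM in shOSGEP#1 and 18.6 and 25.6 CPM in shOSGEP#2 and 0 in the shallow library, most of it Pdgfrb. The defining marker Lum was at 0 in every library, and Dcn did not exceed 0.124 CPM. Endothelial markers summed to at most 2.18 CPM (Pecam1 most abundant), leukocyte markers to 4.79 CPM (Cd68) and keratinocyte markers to 0.195 CPM (Trp63, with Krt5 at 0 throughout), and none of the 4 endothelial and 2 leukocyte genes tested was called or had an unadjusted p under 0.05 by edgeR in any comparison. Muscle markers, mostly Des in the 8 libraries tested, summed to 53.8, 50.6 and 38.2 CPM in shCtr, 27.4, 24.0 and 18.7 CPM in shOSGEP#1 and 62.2 and 38.6 CPM in shOSGEP#2 and 281 CPM in the shallow library, where Myh11 took 130.1, Des 82.6 and Acta2 68.5 CPM, with no call against shCtr by edgeR and, at an unadjusted p under 0.05, 2 of 3 lower with shOSGEP#1 and 2 of 3 higher with shOSGEP#2. The part of these shifts in the collagen, laminin and integrin values was not tested.

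**Figure D1:**
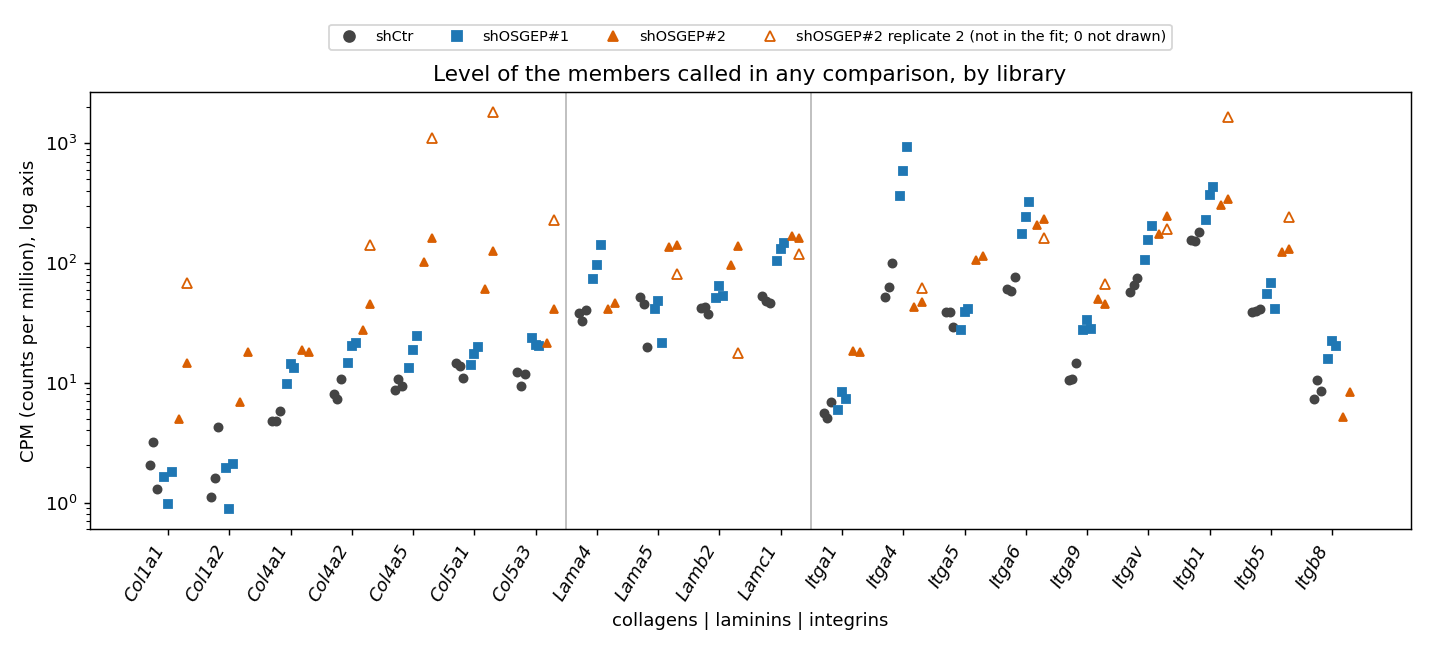
Level in CPM on a log axis of the 20 members called in any of the 4 comparisons, 1 point per library, with collagens, laminins and integrins from left to right and open triangles for the shallow shOSGEP#2 replicate 2 (levels of 0 are not drawn). Itga4 stood out in shOSGEP#1 and Col4a5 and Col5a1 in shOSGEP#2.

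Col4a1 and Col4a2, whose chains assemble into the common collagen IV trimer of basement membranes and whose genes lie head to head, rose with each of them. Col4a1 stood at 4.76, 4.82 and 5.84 CPM in shCtr, 9.72, 14.3 and 13.3 CPM in shOSGEP#1 and 18.9 and 18.2 CPM in shOSGEP#2. Col4a2 was at 8.01, 7.39 and 10.7 CPM in shCtr, 14.8, 20.4 and 21.7 CPM in shOSGEP#1 and 27.6 and 45.5 CPM in shOSGEP#2. For these chains the groups did not overlap: every shOSGEP#1 library lay above every control, and both shOSGEP#2 libraries lay above every shOSGEP#1 library. The Col4a1 log2 fold change was 1.26 (SE 0.234, edgeR adjusted p = 0.00394) with shOSGEP#1 and 1.76 (SE 0.256, edgeR adjusted p = 0.000975) with shOSGEP#2. For Col4a2 it was 1.11 (SE 0.249, edgeR adjusted p = 0.00979) and 1.96 (SE 0.273, edgeR adjusted p = 0.000731), respectively. In the comparison of shOSGEP#1 with shCtr, these calls depended on single libraries. The Col4a1 adjusted p (edgeR) became 0.0237, 0.0271, 0.0229 and 0.0120 without shCtr replicate 1 or 2 or shOSGEP#1 replicate 2 or 3, respectively. The Col4a2 adjusted p (edgeR) became 0.0473, 0.0553, 0.0125, 0.0390 and 0.0325 without shCtr replicate 1, 2 or 3 or shOSGEP#1 replicate 2 or 3, respectively. Both calls with shOSGEP#2 held whichever library was left out; the shallow replicate 2 had 0 counts of Col4a1 and 80 of Col4a2.

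Col4a5, a chain of the collagen IV networks of kidney, lung and eye, was the most changed collagen among those called with shOSGEP#2. Col4a5 stood at 8.65, 10.8 and 9.33 CPM in shCtr, 13.2, 18.7 and 24.8 CPM in shOSGEP#1 and 103 and 161 CPM in shOSGEP#2. The controls were low and tightly grouped, every shOSGEP#1 library lay above them, and both shOSGEP#2 libraries were several times higher than any other library in the fit. Its log2 fold change was 3.67 (SE 0.274, edgeR adjusted p = 6.08e-05) with shOSGEP#2, a call that held whichever library was left out, and 0.96 (SE 0.242, edgeR adjusted p = 0.0169) with shOSGEP#1, which missed the threshold, although DESeq2 on 8 libraries and limma voom on 9 called it. The partner chains of Col4a5, named here as the remaining collagen IV genes, after their values were seen, were scarce. Col4a3 was at 0.843, 0.817 and 2.18 CPM in shCtr, 0.260, 0.199 and 0.293 CPM in shOSGEP#1 and 0.0393 and 0 CPM in shOSGEP#2. All knockdown libraries lay below the controls for Col4a3, but its log2 fold change with shOSGEP#1 of -2.36 (SE 0.901, edgeR adjusted p = 0.0854) did not pass the threshold. With shOSGEP#2, where it had 1 and 0 counts, no fold change is given and edgeR did not call it. On 9 libraries limma voom called Col4a3 with shOSGEP#1, and DESeq2 called it with shOSGEP#2 and over both shRNAs. Col4a4 did not exceed 0.957 CPM in any library of the fit, and Col4a6 had at most 3 counts in any library.

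Among fibrillar collagens, chains of collagen V rose with shOSGEP#2. One is Col5a1, whose chain starts collagen fibrils and limits their width. Col5a1 stood at 14.7, 13.9 and 11.1 CPM in shCtr, 14.0, 17.2 and 20.0 CPM in shOSGEP#1 and 60.2 and 126 CPM in shOSGEP#2. Both shOSGEP#2 libraries were far above all others, while shOSGEP#1 overlapped the controls. The log2 fold change of Col5a1 was 2.71 (SE 0.282, edgeR adjusted p = 0.000200) with shOSGEP#2, which held whichever library was left out, and 0.36 (SE 0.253, edgeR adjusted p = 0.353) with shOSGEP#1. Col5a3 (another chain of collagen V) was at 12.3, 9.44 and 11.8 CPM in shCtr, 23.6, 20.6 and 20.2 CPM in shOSGEP#1 and 21.4 and 41.6 CPM in shOSGEP#2. Here all knockdown libraries lay above the controls, and the log2 fold change was 1.38 (SE 0.263, edgeR adjusted p = 0.00424) with shOSGEP#2 and 0.93 (SE 0.239, edgeR adjusted p = 0.0191) with shOSGEP#1. Of these the first was a call by edgeR, and both were by DESeq2 on the same libraries. Without shOSGEP#2 replicate 3 the value with shOSGEP#2 was 0.868. The Col5a3 adjusted p (edgeR) became 0.0139, 0.0235, 0.0134 and 0.0383 without shCtr replicate 1, 2 or 3 or shOSGEP#2 replicate 3, respectively. This call was also lost with only the shCtr and shOSGEP#2 libraries in the fit. The third chain, Col5a2, was counted 13, 2 and 15 times in the shOSGEP#1 libraries, 2 and 0 times with shOSGEP#2 and never in shCtr, and no fold change is given for it.

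Collagen I, the main protein of connective tissue fibrils, differed between the shRNAs but did not pass against the controls by edgeR on 8 libraries. Col1a1 stood at 2.06, 3.20 and 1.29 CPM in shCtr, 1.62, 0.976 and 1.79 CPM in shOSGEP#1 and 4.99 and 14.8 CPM in shOSGEP#2. Col1a2 (its partner chain) stood at 1.12, 1.59 and 4.26 CPM in shCtr, 1.94, 0.876 and 2.08 CPM in shOSGEP#1 and 6.91 and 18.1 CPM in shOSGEP#2. Both genes were highest in the shOSGEP#2 libraries, replicate 3 above replicate 1, and shOSGEP#1 overlapped the controls. Against shCtr the log2 fold change with shOSGEP#2 was 2.06 (SE 0.563, edgeR adjusted p = 0.0250) for Col1a1 and 2.31 (SE 0.632, edgeR adjusted p = 0.0249) for Col1a2, and in this comparison DESeq2 called both on 8 libraries and Col1a1 on 9, and limma voom called Col1a2 on 9. Set directly against shOSGEP#1, Col1a1 differed by 2.66 (SE 0.573, edgeR adjusted p = 0.00750) and Col1a2 by 2.85 (SE 0.644, edgeR adjusted p = 0.00948) on the log2 scale. Without shOSGEP#2 replicate 3 these differences were smaller, at 1.73 and 2.04. The Col1a1 adjusted p (edgeR) became 0.0147, 0.0120, 0.0221, 0.0313, 0.0164 and 0.0801 without shCtr replicate 1 or 2, shOSGEP#1 replicate 1, 2 or 3 or shOSGEP#2 replicate 3, respectively. The Col1a2 adjusted p (edgeR) became 0.0101, 0.0152, 0.0250, 0.0354, 0.0217 and 0.0857 without shCtr replicate 1 or 2, shOSGEP#1 replicate 1, 2 or 3 or shOSGEP#2 replicate 3, respectively. Both calls were also lost with only the shOSGEP#1 and shOSGEP#2 libraries in the fit. Col3a1, the fibrillar partner of collagen I in skin and vessels and named for that role, did not exceed 5.30 CPM in the fit and was not called.

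Among laminins the shared gamma chain rose with both shRNAs, and the alpha chains split between them. Lamc1 encodes the gamma chain found in most laminin trimers. Lamc1 stood at 52.8, 48.4 and 46.7 CPM in shCtr, 103, 132 and 148 CPM in shOSGEP#1 and 168 and 161 CPM in shOSGEP#2. The 3 groups did not overlap, and the controls were close to each other. Its log2 fold change was 1.36 (SE 0.158, edgeR adjusted p = 0.000405) with shOSGEP#1 and 1.65 (SE 0.171, edgeR adjusted p = 0.000200) with shOSGEP#2, and both calls held whichever library was left out. Lama4, the alpha chain of laminins in vessel walls, rose with shOSGEP#1. Lama4 stood at 38.1, 32.6 and 40.2 CPM in shCtr, 74.3, 96.1 and 143 CPM in shOSGEP#1 and 41.2 and 46.6 CPM in shOSGEP#2. All shOSGEP#1 libraries lay well above the controls, and shOSGEP#2 only just above the highest of them. The log2 fold change of Lama4 was 1.48 (SE 0.222, edgeR adjusted p = 0.00141) with shOSGEP#1 and 0.15 (SE 0.245, edgeR adjusted p = 0.689) with shOSGEP#2. The Lama4 adjusted p (edgeR) became 0.0115 without shCtr replicate 2.

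Lama5, the alpha chain of the most widespread adult laminins, and Lamb2, a beta chain of mature basement membranes, rose with shOSGEP#2. Lama5 stood at 52.2, 45.9 and 20.0 CPM in shCtr, 41.6, 48.3 and 21.5 CPM in shOSGEP#1 and 136 and 142 CPM in shOSGEP#2. shCtr replicate 3 and shOSGEP#1 replicate 3 were low, shOSGEP#1 overlapped the controls, and both shOSGEP#2 libraries were above all others. The Lama5 log2 fold change was 1.73 (SE 0.377, edgeR adjusted p = 0.00872) with shOSGEP#2 and -0.09 (SE 0.342, edgeR adjusted p = 0.878) with shOSGEP#1. The Lama5 adjusted p (edgeR) became 0.0128, 0.0235, 0.0159, 0.0118, 0.0113, 0.0264 and 0.0393 without shCtr replicate 1, 2 or 3, shOSGEP#1 replicate 1 or 2 or shOSGEP#2 replicate 1 or 3, respectively. With shOSGEP#1 absent from the fit the Lama5 call was lost as well. Lamb2 was at 41.9, 43.3 and 37.7 CPM in shCtr, 50.7, 64.9 and 53.3 CPM in shOSGEP#1 and 95.5 and 139 CPM in shOSGEP#2. For Lamb2 the groups did not overlap, and the log2 fold change was 1.42 (SE 0.187, edgeR adjusted p = 0.000555) with shOSGEP#2, held whichever library was left out, and 0.45 (SE 0.170, edgeR adjusted p = 0.0825) with shOSGEP#1. Lama2, Lamb1, Lamb3 and Lamc3 did not pass the threshold in any comparison by edgeR; with shOSGEP#2 the unadjusted p was 0.955, 0.432, 0.0359 and 0.546, and limma voom on 9 libraries called Lamb1 with shOSGEP#1.

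Itga6, Itga9 and Itgav were the integrin chains called with each shRNA. Itga6 pairs with Itgb1 or Itgb4 to bind laminin. Itga6 stood at 60.2, 57.9 and 77.1 CPM in shCtr, 175, 244 and 326 CPM in shOSGEP#1 and 207 and 232 CPM in shOSGEP#2. Every knockdown library lay above every control, and the shRNAs overlapped each other. Itga6 had a log2 fold change of 1.92 (SE 0.221, edgeR adjusted p = 0.000400) with shOSGEP#1 and 1.66 (SE 0.236, edgeR adjusted p = 0.000861) with shOSGEP#2, and both calls held whichever library was left out. Itga9 encodes the alpha chain of a receptor for tenascin-C, osteopontin and VCAM-1. Itga9 stood at 10.5, 10.8 and 14.6 CPM in shCtr, 27.6, 33.8 and 28.3 CPM in shOSGEP#1 and 50.5 and 45.5 CPM in shOSGEP#2. Its groups did not overlap, and its log2 fold change was 1.31 (SE 0.192, edgeR adjusted p = 0.00127) with shOSGEP#1 and 1.91 (SE 0.210, edgeR adjusted p = 0.000218) with shOSGEP#2. The Itga9 adjusted p (edgeR) became 0.0115 without shCtr replicate 2.

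Itgav encodes the alpha v chain, whose receptors bind vitronectin and other RGD ligands. Itgav stood at 57.6, 65.0 and 74.6 CPM in shCtr, 105, 157 and 205 CPM in shOSGEP#1 and 175 and 246 CPM in shOSGEP#2. Every knockdown library lay above every control, with overlap between the shRNAs. The log2 fold change of Itgav was 1.23 (SE 0.231, edgeR adjusted p = 0.00421) with shOSGEP#1 and 1.58 (SE 0.252, edgeR adjusted p = 0.00166) with shOSGEP#2. The Itgav adjusted p (edgeR) became 0.0253, 0.0245, 0.0105, 0.0173 and 0.0138 without shCtr replicate 1, 2 or 3 or shOSGEP#1 replicate 2 or 3, respectively. For shOSGEP#2 the Itgav adjusted p (edgeR) became 0.0101 and 0.0162 without shCtr replicate 1 or shOSGEP#2 replicate 3, respectively. Itgb1 (the beta chain of most of these receptors) was at 157, 154 and 182 CPM in shCtr, 231, 373 and 435 CPM in shOSGEP#1 and 305 and 345 CPM in shOSGEP#2. All knockdown libraries again lay above the controls, with a log2 fold change of 1.06 (SE 0.213, edgeR adjusted p = 0.00577) with shOSGEP#1, a call, and 0.89 (SE 0.233, edgeR adjusted p = 0.0207) with shOSGEP#2, which missed the threshold but was a call by DESeq2 on 8 libraries. The Itgb1 adjusted p (edgeR) became 0.0298, 0.0349, 0.0139, 0.0254 and 0.0185 without shCtr replicate 1, 2 or 3 or shOSGEP#1 replicate 2 or 3, respectively. Itgb3, a partner of the alpha v chain in melanoma that is named here for that role, was at 15.3, 13.4 and 10.5 CPM in shCtr, 8.77, 10.9 and 8.63 CPM in shOSGEP#1 and 12.5 and 9.65 CPM in shOSGEP#2 and was not called.

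Itga4, the alpha chain of the VCAM-1 and fibronectin receptor best known from leukocytes and neural crest cells, was the most changed member called with shOSGEP#1. Itga4 stood at 52.1, 63.3 and 99.2 CPM in shCtr, 359.8, 584 and 939 CPM in shOSGEP#1 and 42.6 and 46.9 CPM in shOSGEP#2. All shOSGEP#1 libraries were several times higher than any control and differed among themselves, whereas both shOSGEP#2 libraries lay below the lowest control. The log2 fold change was 3.12 (SE 0.345, edgeR adjusted p = 0.000322) with shOSGEP#1, which held whichever library was left out, and -0.77 (SE 0.368, edgeR adjusted p = 0.157) with shOSGEP#2, which did not pass. Itgb8, a beta chain that pairs with alpha v and binds latent TGF-beta, showed a like order. Itgb8 stood at 7.31, 10.5 and 8.54 CPM in shCtr, 15.7, 22.4 and 20.3 CPM in shOSGEP#1 and 5.15 and 8.45 CPM in shOSGEP#2. Its shOSGEP#1 libraries lay above all controls, but the log2 fold change of 1.13 (SE 0.255, edgeR adjusted p = 0.01002) fell just short of the threshold, which it passed by DESeq2 on 8 libraries and limma voom on 9, and with shOSGEP#2 it was -0.48 (SE 0.294, edgeR adjusted p = 0.265).

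Itga5, Itga1 and Itgb5 rose with shOSGEP#2. Itga5 pairs with Itgb1 as the fibronectin receptor. Itga5 stood at 38.9, 39.1 and 29.3 CPM in shCtr, 27.8, 38.9 and 41.0 CPM in shOSGEP#1 and 107 and 114 CPM in shOSGEP#2. The shOSGEP#1 libraries overlapped the controls, and both shOSGEP#2 libraries were higher than all others. The Itga5 log2 fold change was 1.53 (SE 0.203, edgeR adjusted p = 0.000571) with shOSGEP#2, held whichever library was left out, and -0.01 (SE 0.185, edgeR adjusted p = 0.987) with shOSGEP#1, a value near 0 whose sign changed with the scaling. Itga1 is the alpha chain of a collagen IV and collagen I receptor. Itga1 stood at 5.60, 5.05 and 6.91 CPM in shCtr, 5.96, 8.42 and 7.39 CPM in shOSGEP#1 and 18.3 and 18.2 CPM in shOSGEP#2. Again shOSGEP#1 overlapped the controls and shOSGEP#2 did not, with log2 fold changes of 0.30 (SE 0.245, edgeR adjusted p = 0.428) and 1.54 (SE 0.269, edgeR adjusted p = 0.00261), respectively. The Itga1 adjusted p (edgeR) became 0.0150 and 0.0175 without shCtr replicate 1 or 2, respectively. Itgb5 stood at 39.2, 39.6 and 41.5 CPM in shCtr, 55.7, 67.6 and 41.2 CPM in shOSGEP#1 and 123 and 132 CPM in shOSGEP#2. For Itgb5 shOSGEP#1 replicate 3 fell within the control range, and the log2 fold change was 0.44 (SE 0.178, edgeR adjusted p = 0.102) with shOSGEP#1 and 1.57 (SE 0.196, edgeR adjusted p = 0.000439) with shOSGEP#2, where the call held whichever library was left out.

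The other integrins tested did not pass the threshold in any of the 4 comparisons by edgeR, nor by limma voom on 9 libraries. Itgb4, the beta chain of the hemidesmosome, was at 4.96, 4.61 and 4.14 CPM in shCtr, 4.804, 6.61 and 3.84 CPM in shOSGEP#1 and 4.16 and 0 CPM in shOSGEP#2, and Itga7, a laminin receptor chain of muscle, at 1.79, 1.34 and 0.765, 0.839, 1.57 and 0.977 and 4.12 and 1.54 CPM in the same groups. They are named for pairing with or resembling Itga6, after their values were seen. Itga2b and Itgb2l have integrin names outside the rule: Itga2b was at 1.88, 1.72 and 0.718 CPM in shCtr and was not called, and Itgb2l had no counts in any library.

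**Figure D2:**
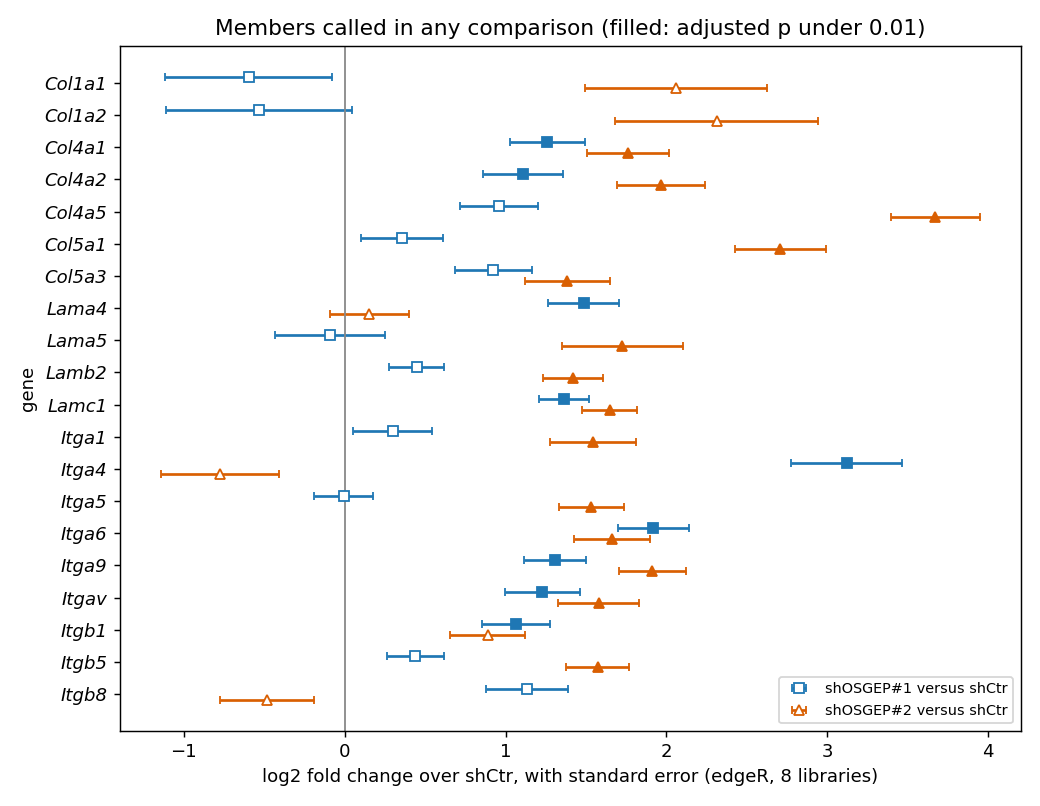
Log2 fold change over shCtr with its standard error, from the edgeR fit of 8 libraries, for the 20 members called in any of the 4 comparisons; filled symbols mark an adjusted p under 0.01. Col4a1, Col4a2, Lamc1, Itga6, Itga9 and Itgav were called with both shRNAs, and the value of Itga4 with shOSGEP#2, on the other side of 0 from shOSGEP#1, did not pass.

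The shRNAs were also set against each other. Higher in shOSGEP#2 than in shOSGEP#1 were Col1a1, Col1a2, Col4a5, Col5a1, Lama5, Lamb2, Itga1, Itga5 and Itgb5, and lower were Lama4, Itga4 and Itgb8. That is 9 higher and 3 lower of 62 members tested by edgeR, against 6.23% and 4.56% of all genes tested, with a median of 0.40 over the members tested and -0.04 over all genes tested. Largest in size among these calls was Itga4, with a log2 difference of -3.89 (SE 0.426, edgeR adjusted p = 0.000215). Col4a5 differed by 2.71 (SE 0.266, edgeR adjusted p = 0.000133), Col5a1 by 2.35 (SE 0.279, edgeR adjusted p = 0.000314) and Itga5 by 1.54 (SE 0.203, edgeR adjusted p = 0.000525). Calls of these 4 genes held whichever library was left out. Leaving out shOSGEP#1 replicate 1, 2 or 3 gave 7, 6 and 7 members called. The share of all genes called in these left-out fits is not given, so a general loss of calls cannot be told from one among members. Leaving out shOSGEP#2 replicate 3 turned the median to -0.06. A fit of the shOSGEP#1 and shOSGEP#2 libraries alone called 6, beside 5.97% of all genes. In the same comparison 5 of 8 melanocyte markers fell (Mlana, Pmel, Dct, Sox10 and Slc45a2) with 8 lower at an unadjusted p under 0.05, 1 of 3 muscle markers rose (Myh11) with 3 higher at that p and a median of 3.05, and 0 of 2 fibroblast markers tested was called by edgeR, with 1 higher at an unadjusted p under 0.05; their part was not tested.

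The remaining calls between the shRNAs were smaller or leaned on single libraries. Lama5 differed by 1.82 (SE 0.378, edgeR adjusted p = 0.00624) and Lamb2 by 0.97 (SE 0.187, edgeR adjusted p = 0.00402) on the log2 scale. The Lama5 adjusted p (edgeR) became 0.0105, 0.0148, 0.0103, 0.0164, 0.0195 and 0.0288 without shCtr replicate 2, shOSGEP#1 replicate 1, 2 or 3 or shOSGEP#2 replicate 1 or 3, respectively. The Lamb2 adjusted p (edgeR) became 0.0151, 0.0123 and 0.0431 without shOSGEP#1 replicate 1 or 3 or shOSGEP#2 replicate 3, respectively. Itga1 was higher in shOSGEP#2 by 1.25 (SE 0.269, edgeR adjusted p = 0.00753), and Itgb5 by 1.13 (SE 0.196, edgeR adjusted p = 0.00213). The Itga1 adjusted p (edgeR) became 0.0148, 0.0144, 0.0278, 0.0167, 0.0160, 0.0178 and 0.0194 without shCtr replicate 1 or 2, shOSGEP#1 replicate 1, 2 or 3 or shOSGEP#2 replicate 1 or 3, respectively. The Itgb5 adjusted p (edgeR) became 0.0141 without shOSGEP#2 replicate 3. Lama4 and Itgb8, lower in shOSGEP#2, differed by -1.33 (SE 0.256, edgeR adjusted p = 0.00399) and -1.62 (SE 0.304, edgeR adjusted p = 0.00351), respectively. The Lama4 adjusted p (edgeR) became 0.0104, 0.0224 and 0.0246 without shOSGEP#1 replicate 2 or shOSGEP#2 replicate 1 or 3, respectively. The Itgb8 adjusted p (edgeR) became 0.0162 and 0.0169 without shOSGEP#1 replicate 2 or shOSGEP#2 replicate 1, respectively. The Lamb2, Itga1, Lama4 and Itgb8 calls were lost with only the shOSGEP#1 and shOSGEP#2 libraries in the fit, and by limma voom on 9 libraries.

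In the shallow shOSGEP#2 replicate 2, 65 of 80 members were at 0 and a few collagens and Itgb1 took up most member counts. Col5a1 had 1036 counts, or 1821 CPM (95% Wilson interval 1713 to 1935), and Itgb1 had 943 counts, or 1657 CPM (1555 to 1766). Col4a5 followed with 627 counts, or 1102 CPM (1019 to 1192). These levels were several times those of the other shOSGEP#2 libraries and lay outside these intervals. The intervals treat each count as independent. Of the 4196 genes detected in this library 3933 reached 10 counts, so the intervals may be too narrow, which was not tested. Collagens made up 0.356% of its counts (95% Wilson interval 0.341 to 0.372), laminins 0.0218% (0.0183 to 0.0260) and integrins 0.238% (0.226 to 0.251). Col1a1, Col4a2, Col5a3, Itgb5 and Col16a1 were likewise above both, at 68.5, 141, 228, 241 and 202 CPM. Among members called in any comparison, Itga5, Lama4, Col4a1, Itga1, Col1a2 and Itgb8 were at 0, although the mean CPM of the other shOSGEP#2 libraries would give 62.9, 25.0, 10.6, 10.4, 7.12 and 3.87 counts at this depth, respectively. Lamb2 had 10 counts, where 66.8 would be given in the same way, and at 17.6 CPM (95% Wilson interval 9.55 to 32.4) it lay below every control. Closer to those libraries were Itgav at 192 CPM, Itga6 at 163 CPM, Itga9 at 66.8 CPM, Itga4 at 61.5 CPM and Lamc1 at 119.5 CPM, and Lama5 at 80.8 CPM was between them and the controls.

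With this library in the fit, the number of members called depended on the tool. By edgeR on all 9 libraries, 57 members were tested, and 0 were called with shOSGEP#1, shOSGEP#2, both shRNAs or between the shRNAs, as were 0% of all genes tested in each of these comparisons. At an unadjusted p under 0.05 edgeR gave 7 members higher and 2 lower with shOSGEP#1 (5.03% of all genes), 18 and 2 with shOSGEP#2 (10.1%), 14 and 2 with both (6.62%), and 11 and 5 between the shRNAs (10.7%). DESeq2 on all 9 libraries called 3, 10, 8 and 5 members in these comparisons, against 0.904%, 2.57%, 1.38% and 3.19% of all genes. limma voom with sample quality weights, which gives an aberrant library less weight, called 21, 20, 19 and 9, against 26.9%, 8.20%, 16.8% and 7.56%. By direction these voom calls were 19 higher and 2 lower, 20 and 0, 19 and 0, and 8 and 1. Called by DESeq2 on 9 libraries with shOSGEP#1 were Itga4, Itga6 and Itga9, all higher, and with shOSGEP#2 Col1a1, Col4a2, Col4a5, Col5a1, Col5a3, Lamc1, Itga9 and Itgb5, higher, and Col14a1 and Col4a3, lower, and between the shRNAs Col1a1, Col4a5, Col5a1 and Itgb5, higher in shOSGEP#2, and Itga4, lower. Over genes with an adjusted p, the median log2 fold change with shOSGEP#2 moved to -0.37 by edgeR and -0.37 by DESeq2, while over the 57 and 62 members with one it was 0.77 and 0.83. With both shRNAs the median over such genes was -0.19 by edgeR and -0.18 by DESeq2, and between the shRNAs -0.35 and -0.39. The common dispersion, the squared coefficient of variation between replicates, was 0.420 with 9 libraries and 0.0692 with 8.

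Genes that work beside collagens, laminins and integrins were read in the same fits, averaged over both shRNAs. Over all 125 such genes, 35 rose and 2 fell of 107 tested by edgeR, with a median of 0.77, against 5.04%, 4.27% and -0.04 for all genes tested. Taken singly, 23 rose and 2 fell with shOSGEP#1, and 39 and 2 with shOSGEP#2, of the same tested genes. Of matrix proteins at the same adhesion sites, 5 rose and 2 fell of 13 tested (18 listed), median 0.87: the ligands Thbs1, Ccn1 and Fn1, the basement membrane proteoglycan Hspg2 and the collagen-binding Sparc rose, and Nid1, the linker between laminin and collagen IV, and Spp1, osteopontin, fell. Fn1 (fibronectin, the ligand of the Itga5 receptor) was at 46.4, 34.4 and 21.1 CPM in shCtr, 89.4, 110.0 and 86.1 CPM in shOSGEP#1 and 255 and 157 CPM in shOSGEP#2, a log2 fold change of 2.00 (SE 0.264, edgeR adjusted p = 0.000756) over both shRNAs. Thbs1 stood at 0.967, 1.55 and 2.27 CPM in shCtr, 7.84, 12.3 and 17.2 CPM in shOSGEP#1 and 19.7 and 19.6 CPM in shOSGEP#2, with 3.23 (SE 0.366, edgeR adjusted p = 0.000399), and Ccn1 and Hspg2 had log2 fold changes of 2.31 (SE 0.244, edgeR adjusted p = 0.000321) and 1.24 (SE 0.137, edgeR adjusted p = 0.000361). Nid1 was at 51.4, 50.5 and 49.9 CPM in shCtr, 28.2, 27.8 and 27.6 CPM in shOSGEP#1 and 18.2 and 21.3 CPM in shOSGEP#2, with every knockdown library below every control and a log2 fold change of -1.16 (SE 0.126, edgeR adjusted p = 0.000336). Spp1 had a log2 fold change of -3.06 (SE 0.495, edgeR adjusted p = 0.00217) and Sparc of 0.75 (SE 0.165, edgeR adjusted p = 0.00912). The Spp1 adjusted p (edgeR) became 0.0159 and 0.0200 without shCtr replicate 1 or 2, respectively. The Sparc adjusted p (edgeR) became 0.0343, 0.0566, 0.0307, 0.0158, 0.0120, 0.0152 and 0.0214 without shCtr replicate 1, 2 or 3, shOSGEP#1 replicate 2 or 3 or shOSGEP#2 replicate 1 or 3, respectively.

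Among enzymes and carriers of collagen synthesis, 10 rose and 0 fell of 31 tested (36 listed), median 0.79. They were the prolyl hydroxylases P3h2 and P3h3, the glycosyltransferase Colgalt1, the procollagen processing genes Pcolce and Bmp1, the crosslinking oxidase Loxl4, the export receptors Mia3 and Mia2 with the coat protein Sec23a, and the channel gene Tmem38b. P3h2 stood at 10.4, 10.6 and 10.8 CPM in shCtr, 27.8, 36.6 and 38.8 CPM in shOSGEP#1 and 35.9 and 40.1 CPM in shOSGEP#2, and its log2 fold change was 1.71 (SE 0.170, edgeR adjusted p = 0.000294). All knockdown libraries lay above the controls for P3h2, which stayed close together. Of integrin adhesion genes, 7 rose and 0 fell of 34 tested (36 listed), median 0.32; among those that rose were the talins Tln1 and Tln2, vinculin (Vcl), zyxin (Zyx), Bcar1 and Flna, which act between integrins and actin. Vcl stood at 52.6, 55.9 and 68.1 CPM in shCtr, 101, 120.2 and 119 CPM in shOSGEP#1 and 164 and 203 CPM in shOSGEP#2, a log2 fold change of 1.24 (SE 0.145, edgeR adjusted p = 0.000416). Of matrix proteases and their inhibitors, 8 rose and 0 fell of 20 tested (26 listed), median 1.02: Mmp11, Timp2, Timp3, Adam9, Adam15, Adam17, Adam19 and Ctsb; Ctsb, the most abundant of them in shCtr and shOSGEP#1, was at 219, 176 and 175 CPM in shCtr, 561, 918 and 1015 CPM in shOSGEP#1 and 269.7 and 259 CPM in shOSGEP#2, where Timp3 was higher at 596 and 372 CPM. Of the other matrix receptors, 5 rose and 0 fell of 9 tested (9 listed), median 0.91: the collagen receptor Ddr1, the dystroglycan gene Dag1, and the syndecans Sdc1, Sdc2 and Sdc4; with shOSGEP#1 alone 0 of the receptors tested were called by edgeR and 5 rose by DESeq2, with 6 higher by edgeR at an unadjusted p under 0.05 and a median of 0.57, and with shOSGEP#2 alone 7 rose by edgeR, with a median of 1.25. In the same order of shRNAs, 6 and 5 of the matrix proteins rose and 1 and 2 fell, 8 and 8 of the collagen synthesis genes, 5 and 10 of the integrin adhesion genes and 4 and 9 of the proteases and inhibitors rose, and 1 and 0 integrin adhesion genes fell. Of the 37 named partner calls over both shRNAs 14 held whichever library was left out; 16, 14 and 23 held without shCtr replicate 1, 2 or 3, 35, 23 and 34 without shOSGEP#1 replicate 1, 2 or 3, and 31 and 28 without shOSGEP#2 replicate 1 or 3.

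Collagens, laminins and integrins have long transcripts, and longer genes were called higher more often. The median exon length was 7014 bases over the members tested and 4497 bases over all genes tested. Among the members tested, 32 lay among the longest when genes were split by length into 4 groups of equal size; in that group 7.71% of genes rose with shOSGEP#1, 9.66% with shOSGEP#2 and 8.37% with both, against 2.71%, 2.52% and 2.39% in the group of shortest genes. The members tested themselves stood at 14.5%, 22.6% and 21.0%, and median log2 fold changes over all genes in the longest group were 0.10, 0.09 and 0.08. The part of length in the member values was not tested.

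Promoters of the members were read for short motifs, because several chains moved together. Windows from 250 bases before to 50 bases after the gene start (RefSeq, build GRCm38.p6) were held for 57 of 80 members, and for 14 of the 17 members called with either shRNA. The letters GGGCGG, on either strand, bound by SP factors, stood in 33 of 57 member promoters (57.9%) and in 35.7% of all 32851 windows, and in 11 of the 14 called members; a member with several starts counts once, if any of its windows holds the letters. GGAATG (TEAD) stood in 8 member promoters and 14.7% of all windows, TGANTCA (AP-1) in 4 and 7.81%, CATGTG (MITF) in 7 and 14.2%, and GTCTAGAC (SMAD) in 0 and 0.213%, each on either strand. Among called members, GGAATG was in the Itgb1 window and TGANTCA in that of Itga9. For 4 members with large changes, 26 bases with the GGGCGG letters in capitals are printed 5′ to 3′ on the strand of the gene for Col4a2 (chr8:11312603-11312628), Col4a5 (chrX:141475379-141475404), Col5a1 (chr2:27886342-27886367) and Itga4 (chr2:79255302-79255327), all on the plus strand and upstream of the gene start; a match describes the letters and says nothing of binding.
Col4a2: ggcgcgcccgGGGCGGcaggggacca
Col4a5: agcggggaggGGGCGGtgcagggaag
Col5a1: cgggcgttggGGGCGGtggggggtgg
Itga4: agctgctgcgGGGCGGggatggggat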

How the data were processed

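RNA bound to FLAG-tagged RIG-I was sequenced as stranded libraries after ribosomal RNA removal. Whole-number counts per Ensembl gene were made and deposited by the authors with bcl2fastq, Trim Galore, STAR and Salmon on GRCm39. Here, 22237 of 22396 identifiers were matched to symbols, types and exon lengths in GENCODE on GRCm38, and 159 were not matched. GRCm38 is a different build from that of the counts, used for this and for the promoter windows only. The main test was edgeR 4.0.16 (R 4.3.3): TMM factors, filterByExpr, a quasi-likelihood fit of 8 libraries and Benjamini-Hochberg adjustment over all 12744 genes tested, with calls at an adjusted p under 0.01. The steps were tested on simulated data. CPM are counts over library totals, without TMM factors. Alternatives were all 9 libraries, DESeq2 1.42.0, limma 3.58.1 voom with sample quality weights, other scalings, filters and thresholds, only the groups compared, the replicate number as a block, and each library left out in turn. Named genes were Osgep, Ddx58, every member called in any comparison, the 3 members of each family with the highest RPKM in shCtr, up to 10 called genes of each partner list, and Itga2b and Itgb2l. Col3a1, Col4a3, Col4a4, Col4a6, Col5a2, Col11a1, Col16a1, Col17a1, Itga7, Itgb3, Itgb4, Lama2, Lamb1, Lamb3 and Lamc3 were named after their values were seen. Some genes under these rules are not reported here. The members and lists were chosen with earlier results of these data known. Figures were drawn with matplotlib 3.10.9 in Python 3.11.15.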

Additional observations from a re-analysis of the deposited data

Results flagged for a closer look

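For 12 members the effects of the shRNAs differed by the edgeR test of shOSGEP#2 against shOSGEP#1 at an adjusted p under 0.01, of 62 tested, beside 6.23% of all genes higher and 4.56% lower. Of these calls 4 held whichever library was left out (Col4a5, Col5a1, Itga4 and Itga5) and 6 with only these groups in the fit. The log2 differences were 2.71 for Col4a5, 2.35 for Col5a1, 2.66 for Col1a1 and 2.85 for Col1a2 among collagens. Among laminins they were 1.82 for Lama5, 0.97 for Lamb2 and -1.33 for Lama4. Among integrins they were -3.89 for Itga4, -1.62 for Itgb8, 1.54 for Itga5, 1.25 for Itga1 and 1.13 for Itgb5.

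The shallow shOSGEP#2 replicate 2, a library outside the 8 that were tested, had a larger collagen share and Col5a1 level than every control library. Collagens took 0.356% of its counts (95% Wilson interval 0.341 to 0.372), and Col5a1 stood at 1821 CPM (1713 to 1935). These intervals treat each count as independent and may be too narrow for this library.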

How the results depend on the processing

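Of the values of named genes under alternatives, 1641 kept their direction and their side of the threshold, 316 no longer passed it, 54 newly passed it and 20 changed sign, and no member called with either shRNA or between them changed sign in that comparison. The number of members called, by edgeR on 8 libraries, was 9 with shOSGEP#1, 14 with shOSGEP#2, 13 with both and 12 between the shRNAs. With shOSGEP#1 it was 0 by edgeR with all 9 libraries, 16 by DESeq2, 3 by DESeq2 with 9, 21 by limma voom with 9 and 15 at an adjusted p under 0.05 (beside 21.9% of all genes). The count with shOSGEP#2 was 0 by edgeR with 9 libraries, 24 by DESeq2 and 24 at 0.05 (beside 21.0%). Over both shRNAs it was 0 by edgeR with 9 libraries, 21 by DESeq2, 8 by DESeq2 with 9 and 20 at 0.05 (beside 21.2%). Between the shRNAs it was 0 by edgeR with 9 libraries, 5 by DESeq2 with 9 and 6 with only the groups compared in the fit (beside 5.97% of all genes), where Col1a1, Col1a2, Itga1, Itgb8, Lama4 and Lamb2, and Col5a3 and Lama5 with shOSGEP#2, did not pass. Leaving out each shCtr or shOSGEP#1 library gave 3 to 10, 10 to 14, 4 to 15 and 6 to 12 members called in these comparisons. Shares of all genes called are not given for any left-out fit, so a loss among members cannot be told from a general one. With each library left out in turn, medians over the members tested were 0.60 to 0.92, 0.80 to 1.24, 0.78 to 1.05 and -0.0577 to 0.44. The last was negative without shOSGEP#2 replicate 3. The median with shOSGEP#2 was 1.55 when 10 counts were required in every library, and that between the shRNAs 0.16 by DESeq2 with 9 over the 71 members with a fold change, or 0.13 over the 61 with an adjusted p. Values that changed sign were all of genes not called in that comparison. With shOSGEP#1, Itga5 was 0.00741 by DESeq2, 0.0141 by DESeq2 with 9 libraries, 0.00733 with RLE factors, 0.00572 with library totals and 0.00359 under the stricter filter on low counts, and Pmel was 0.101 by voom with 9 libraries. With shOSGEP#2, Lama4 was -0.384 by edgeR and -0.439 by DESeq2, each with 9 libraries. With libraries left out in turn, shOSGEP#1 log2 fold changes ranged from -0.126 to 0.154 for Itga5, -0.408 to 0.181 for Lama5, -0.868 to 0.251 for Col1a2, -0.0847 to 0.281 for Mlana, -0.251 to 0.0487 for Pmel and -0.00976 to 0.0782 for Sox10. The cause was not tested for any of these shifts. With the replicate number as a block, 12, 13, 14 and 9 members were called in the 4 comparisons, beside 10.8%, 9.71%, 10.5% and 10.9% of all genes, with medians of 0.66, 0.73, 0.91 and 0.22. Libraries with the same number deviated from their group means with a mean correlation of 0.0801 over 7 pairs (-0.00483 to 0.178), against -0.0394 over 14 pairs with different numbers, and 6 of 8 libraries correlated best with their own number, a hint from the data. Not every pair was above 0.1 and the labels do not say that a number marks a shared experiment, so the numbers were not taken as pairs. Under the block, Col5a3 with shOSGEP#2 and Col1a1, Col1a2 and Itga1 between the shRNAs did not pass the threshold, nor did Loxl4, Tmem38b and Adam19 over both shRNAs. Where leaving out a library left shOSGEP#2 with 1, that library was assumed to vary like the other groups.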

Other observations

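Levels are relative to the total of each immunoprecipitate, so a difference in the amount of RNA recovered was not measured. Unspliced and spliced RNA were not told apart, and reads shared by near-identical genes were placed by the authors' counting, which was not examined. Each gene stands on 3 shCtr, 3 shOSGEP#1 and 2 shOSGEP#2 libraries in the tests, and p-values measure the spread between these libraries only.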
